A study of Rattus norvegicus with 23 samples.

Results

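The genes described here are Adipor1 and Adipor2, which encode the seven-pass membrane receptors for the fat-cell hormone adiponectin, and Cdh13, which encodes T-cadherin, a further adiponectin-binding protein of the cell surface. A probe set is a group of short DNA probes read together as 1 value, and the transcripts that each binds were not checked. The members were all probe sets whose only gene symbol in the platform annotation is 1 of these names. They came to 7 of the 31099 probe sets of the array and to 3 of 14218 genes with a symbol of their own. Adipor1 is read by 1388373_at alone. Adipor2 is read by 1397519_at, 1390549_at and 1395146_at, and Cdh13 by 1373102_at, 1369425_at and 1375719_s_at. In the area postrema all 3 genes had a probe set well inside the measured range. Of the 6 probe sets that could be tested, 0 passed the threshold in any comparison of strain, fasting or dehydration. Over all probe sets tested, 5.12% passed for strain, 0.0215% for fasting, 0.166% for dehydration and 0.0322% between dehydration and fasting. A count of 0 among 6 is near these shares.

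Adiponectin circulates as trimers, hexamers and larger multimers. AdipoR1 and AdipoR2 belong to the progestin and adipoQ receptor (PAQR) family, which lies in the membrane in the opposite sense to G protein-coupled receptors. Through the adaptor APPL1, AdipoR1 is known mainly for activating the energy-sensing kinase AMPK. AdipoR2 is known mainly for raising PPAR alpha activity, and both receptors promote the breakdown of ceramide. T-cadherin is an atypical cadherin held to the membrane by a lipid anchor instead of a cytoplasmic tail. It binds the large multimers of adiponectin and is abundant on endothelial cells, muscle and some neurons. The area postrema is a sensory organ on the floor of the fourth ventricle whose capillaries are open to blood-borne hormones, and adiponectin is known to act on its neurons in the rat.

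The samples were 23 arrays of area postrema from male rats, and by the labels each array carried RNA pooled from 5 animals. Hypertensive SHR rats gave 5 arrays and their normotensive WKY comparison strain gave 5, all at 10 to 13 weeks of age. Sprague Dawley rats aged 10 to 12 weeks gave 4 arrays from controls, 5 from animals with food withheld for 48 h and 4 from animals dehydrated for 72 h. No group carried an engineered allele or a drug according to the labels. SHR and WKY were deposited with a labelling text that differs from that of the Sprague Dawley arrays, so a difference between those strains and Sprague Dawley cannot be told apart from a difference in processing. The study set the hypertensive strain against WKY, and hunger and thirst against the fed and watered state.

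The signal is the authors' scaled intensity, with a trimmed mean of 100 on every array and array medians of 39.81 to 44.48. Of 13 markers of area postrema neurons, 10 were on the table. All 10 were above the filter on low signal, which drops only probe sets below the 40th percentile. Among them were Casr, the calcium-sensing receptor, at a mean of 230.7 and Calcr, the calcitonin receptor, at 122.0. Avpr1a and Glp1r, at 39.5 and 34.7, lay close to the filter of 28.8 over all arrays. Of 6 motor neuron markers of neighbouring nuclei, 4 were also kept. Markers of adipocytes, the source of adiponectin, were dim. Only Cfd, at 33.8, passed the filter over all arrays among 5 adipocyte markers. Adipoq at 27.2 and Plin1 at 21.6 lay under it, and Lep and Cidec stood at 6.4 and 1.5. The summed signal of 5 choroid plexus markers was 173 to 270 in SHR and 213 to 371 in WKY. It was 466 to 6819 in the controls, 276 to 6721 in the fasted group and 545 to 8227 in the dehydrated group. The 3 Sprague Dawley groups thus each held arrays high in Ttr, a marker of this neighbouring tissue. Ttr alone gave 6558.6, 6342.6 and 7953.2 on the highest array of each group. In controls, SHR and WKY, Folr1 had means of 75.2, 43.4 and 49.8, but Aqp1 had 58.4, 70.0 and 84.6. As a measure of RNA integrity, the Gapdh 3' signal over its 5' signal on the log2 scale ran from 0.03 to 0.676. In bulk tissue, fewer cells of a type and less RNA per cell cannot be told apart.

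Adipor1, the receptor tied to AMPK, had the steadiest signal of the 7 probe sets. The SHR arrays read 269, 278, 304, 263 and 258, and the WKY arrays read 283, 293, 287, 279 and 289. The controls read 315, 267, 296 and 276, the fasted group 305, 281, 275, 298 and 299, and the dehydrated group 262, 280.2, 264 and 276. Every group therefore lay within a band from 258 to 315, and the ranges of all 5 groups overlapped. The means were 291.5 ± 13.0 in the fasted group (SD, n = 5), 288.6 ± 21.7 in the controls (n = 4), 286.3 ± 5.4 in WKY (n = 5), 274.4 ± 18.3 in SHR (n = 5) and 270.4 ± 9.2 in the dehydrated group (n = 4). No step between neighbours in that order was larger than the larger of their standard deviations. Within groups the spread of Adipor1 was 0.069 on the scale of log2(signal + 16), below the lower quartile of 0.125 among all probe sets kept.

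Adipor2, the receptor tied to PPAR alpha, was followed mainly by 1397519_at, its probe set with the highest mean signal. SHR gave 99.5, 91.5, 73.1, 78.5 and 77.3, and WKY gave 85.8, 90.4, 79.9, 80.1 and 58.2. The controls gave 85.0, 85.8, 77.9 and 98.3, the fasted arrays 92.8, 83.8, 92.0, 86.2 and 96.3, and the dehydrated arrays 83.0, 67.3, 85.7 and 103. The lowest array, at 58.2, was a WKY array and the highest, at 103, a dehydrated array, and all groups overlapped. The order of means was fasted at 90.2 ± 5.1, control at 86.8 ± 8.5, dehydrated at 84.8 ± 14.7, SHR at 84.0 ± 11.1 and WKY at 78.9 ± 12.4. Each of these steps was smaller than the spread within the groups.

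The 1390549_at probe set of Adipor2 lay close to the filter and varied more. SHR read 60.7, 42.3, 50.2, 48.9 and 63.1, and WKY read 53.7, 46.3, 43.8, 54.6 and 42.7. The controls read 36.8, 48.7, 42.8 and 38.8, and the dehydrated arrays 30.3, 36.8, 41.95 and 40.5. The fasted arrays spread from 18.5 to 60.8, with 23.4, 36.9 and 32.3 between, a wider span than in any other group. SHR and WKY both lay wholly above the dehydrated arrays here, a difference that crosses the labelling divide and that 1397519_at does not show. The remaining probe set, 1395146_at, had group means of 2.1 to 8.5 against a filter of 29.5 in the SHR and WKY fit and 28.1 in the Sprague Dawley fit, and was not tested. Run without a filter, its fasted arrays (2.33 to 12.1) exceeded the controls (1.81 to 2.48) by 0.39 on the log2(signal + 16) scale, with a limma adjusted p of 0.622, with every array below the filter.

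Cdh13 was read by 3 probe sets that passed the filter everywhere. At 1373102_at, the brightest on average, SHR gave 205, 189, 179, 154 and 175, and WKY gave 195, 203, 189.8, 185 and 184. The controls gave 206, 179, 176 and 203, the fasted arrays 190.5, 211, 236, 202 and 243, and the dehydrated arrays 195, 160.05, 185 and 209.6. The fasted group held the 3 highest arrays of the series, at 211, 236 and 243, but its lowest array lay inside the range of every other group. Its mean of 216.5 ± 22.2 stood above WKY at 191.2 ± 7.9, controls at 191.0 ± 15.5, dehydrated at 187.5 ± 20.9 and SHR at 180.4 ± 18.6. The step from fasted to WKY was the only one in this order to exceed the larger standard deviation.

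The other Cdh13 probe sets ordered the groups differently. At 1369425_at the means were 205.2 ± 18.6 in the dehydrated group, 192.3 ± 39.96 in SHR, 192.2 ± 34.0 in the fasted group, 191.5 ± 28.5 in the controls and 175.7 ± 23.8 in WKY, with all ranges overlapping. At 1375719_s_at the controls were highest at 197.1 ± 25.2, followed by dehydrated at 179.0 ± 33.3, fasted at 178.8 ± 18.0, WKY at 169.2 ± 19.4 and SHR at 150.2 ± 16.7. The SHR arrays at this probe set, from 128 to 169, all lay below the controls, from 175 to 233, again across the labelling divide. Over the 7 probe sets, 4 of 70 pairs of groups did not overlap, and all 4 set SHR or WKY against a Sprague Dawley group. For pairs across that divide the share over all probe sets was not computed, so the count is a description only. In the comparisons that were tested the share was 2.34% to 6.69%. Among the 4 was 1395146_at of Adipor2, at 3.0 to 14.7 in SHR and 1.8 to 2.5 in the controls. That probe set lay below the filter.

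**Figure D1:**
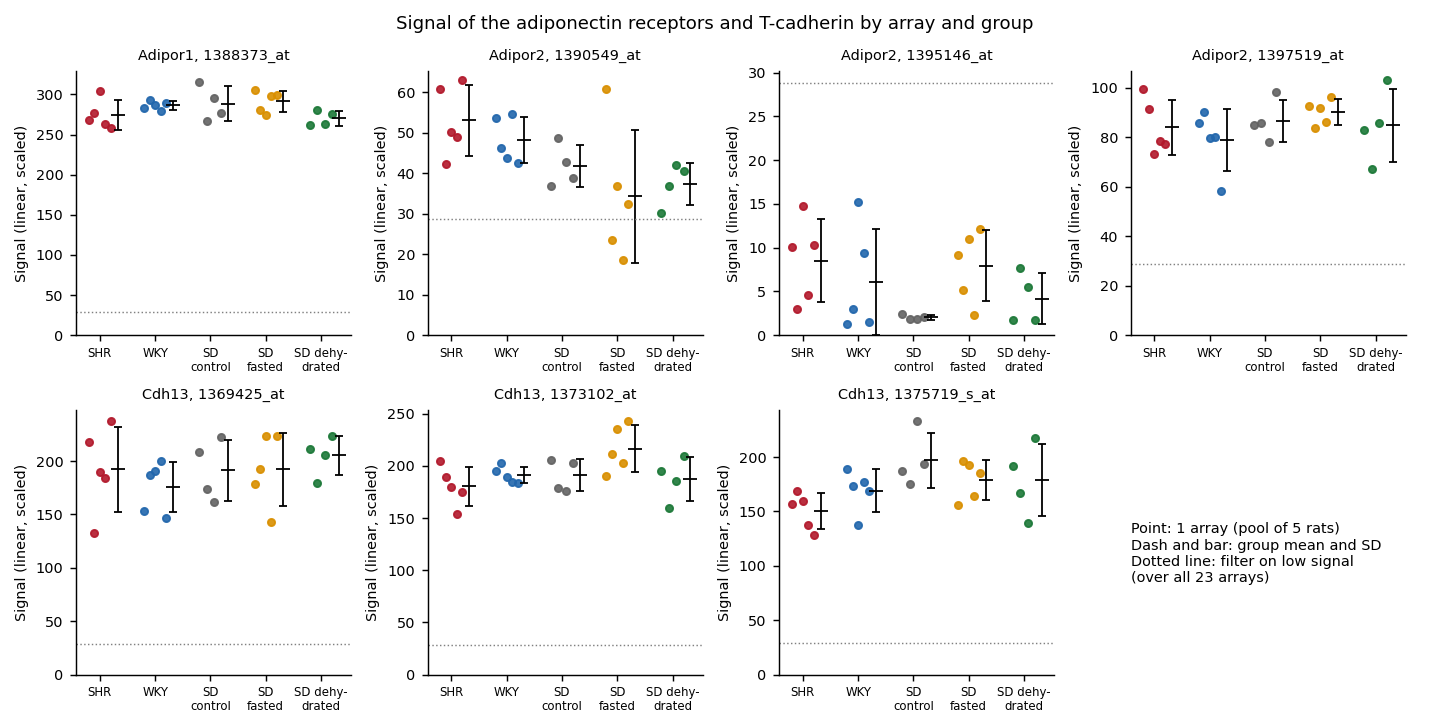
Scaled signal (linear axis from 0) of each of the 7 probe sets in every array, by group, where SD in the axis labels means Sprague Dawley. Points are arrays of 5 pooled rats, dashes and bars are the group mean and standard deviation, and the dotted line is the filter on low signal of 28.8 over all arrays. Adipor1 lies between 258 and 315 in every group, and 1395146_at of Adipor2 lies below the filter on every array.

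Between the hypertensive and the normotensive strain none of the 3 genes differed beyond the spread of the arrays. Of 18625 probe sets tested, 954 passed an adjusted p of 0.05 by limma with Benjamini-Hochberg adjustment, which is 5.12%, and 0 of the 6 probe sets of these genes did. For Adipor1, SHR minus WKY was -0.06 on the log2(signal + 16) scale, with a 95% interval of -0.187 to 0.067. That interval corresponds to 0.88-fold to 1.05-fold. Adipor2 differed by 0.08 at 1397519_at (interval -0.143 to 0.301) and by 0.10 at 1390549_at (-0.118 to 0.319).

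For Cdh13 the strain difference was 0.11 at 1369425_at (-0.16 to 0.371), -0.08 at 1373102_at (-0.237 to 0.073) and -0.16 at 1375719_s_at (-0.344 to 0.033). The 3 T-cadherin probe sets thus did not share a sign, and the last had the lowest adjusted p of the 6, at 0.409 by limma. No probe set of the 3 genes had an unadjusted limma p under 0.05, where 17.3% of all probe sets did, and none separated the strains without overlap, where 6.37% did. Among markers of the cells in which T-cadherin is abundant, the vascular lists overlapped between strains. The summed signal of 9 endothelial markers was 505 to 555 in SHR and 470 to 660 in WKY, and that of 8 pericyte and smooth muscle markers was 317 to 403 and 269 to 386. That of 8 general neuron markers was 5712 to 6394 and 6032 to 6393, but that of 10 area postrema neuron markers was 4050 to 4515 in SHR and 3610 to 3998 in WKY, without overlap. Within that sum Cartpt alone had means of 2033.1 in SHR and 1447.7 in WKY. Of the 10 markers, 7 were higher and 3 lower in SHR, and only Cartpt passed the threshold.

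Withholding food for 48 h moved no probe set of the 3 genes past the threshold. Only 4 of 18625 probe sets passed the adjusted threshold in this comparison (0.0215%), so a count of 0 among 6 is near the background. Fasted minus control was 0.02 for Adipor1 (95% interval -0.131 to 0.162, or 0.91-fold to 1.12-fold), the smallest interval of the 6. Adipor2 gave 0.05 at 1397519_at (-0.167 to 0.267) and -0.25 at 1390549_at (-0.612 to 0.113), where the wide spread of the fasted arrays noted above sets the interval.

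Cdh13 after fasting gave 0.17 at 1373102_at (-0.024 to 0.355), where 216.5 against 191.0 is a gap over the larger standard deviation of 22.2. It gave -0.001 at 1369425_at (-0.242 to 0.24) and -0.13 at 1375719_s_at (-0.355 to 0.101). The probe sets again disagreed in sign. The mean over the Cdh13 probe sets differed by 0.01. None reached an unadjusted limma p under 0.05 (7.19% of all probe sets did), and none separated the groups (2.34% did).

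Dehydration for 72 h was set against the same control arrays as fasting and gave 0 of 6, where 31 of 18625 probe sets passed (0.166%). Adipor1 differed by -0.09 (dehydrated minus control, 95% interval -0.241 to 0.067, or 0.85-fold to 1.05-fold). The 2 tested Adipor2 probe sets differed by -0.04 at 1397519_at (-0.264 to 0.193) and -0.12 at 1390549_at (-0.497 to 0.267). At 1390549_at the standard deviations were 5.22 in the dehydrated group and 5.24 in the controls. The fit shares 1 estimate of spread over the 3 Sprague Dawley groups, so the fasted arrays, at 16.42, also enter this interval. Cdh13 differed by 0.10 at 1369425_at (-0.156 to 0.353), by -0.03 at 1373102_at (-0.227 to 0.172) and by -0.14 at 1375719_s_at (-0.377 to 0.104). Unadjusted, 11.7% of all probe sets and 0 of these 6 had p under 0.05 by limma. The dehydrated and control arrays were separated without overlap at 6.69% of probe sets and at 0 of these 6.

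Setting the thirsty against the hungry animals, which uses the same fasted and dehydrated arrays as the comparisons above, 6 of 18625 probe sets passed (0.0322%) and again 0 of 6 here. At 1373102_at of Cdh13, dehydrated minus fasted was -0.19 on the log2(signal + 16) scale (95% interval -0.383 to -0.004), a fold of 0.87. This was the only unadjusted limma p under 0.05 among all 24 tests of these genes, at 0.046, with an adjusted p of 0.485, and 10% of all probe sets had an unadjusted p that low. The ranges overlapped, at 160.05 to 209.6 against 190.5 to 243, and the other Cdh13 probe sets gave 0.10 (-0.141 to 0.341) and -0.01 (-0.238 to 0.218). The Gapdh 3' to 5' log2 ratio was 0.213 to 0.676 in the dehydrated arrays and 0.177 to 0.257 in the fasted arrays, and with this ratio as a covariate the difference at 1373102_at was -0.08, with a limma adjusted p of 0.975.

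Between the same groups the receptors gave -0.10 for Adipor1 (-0.248 to 0.044), -0.09 for 1397519_at (-0.302 to 0.131) and 0.14 for 1390549_at (-0.228 to 0.497) of Adipor2. None of the 6 probe sets separated these groups, where 3.23% of all did. Across the 4 comparisons the adjusted p-values of the 3 genes by limma ran from 0.409 to 0.999. The median size of their differences was 0.091 for strain against 0.09 over all probe sets, and 0.089 against 0.086 for fasting. It was 0.093 against 0.104 for dehydration, and 0.101 against 0.092 between dehydration and fasting. The size of the differences in these genes was thus close to that of the middle probe set of the array.

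**Figure D2:**
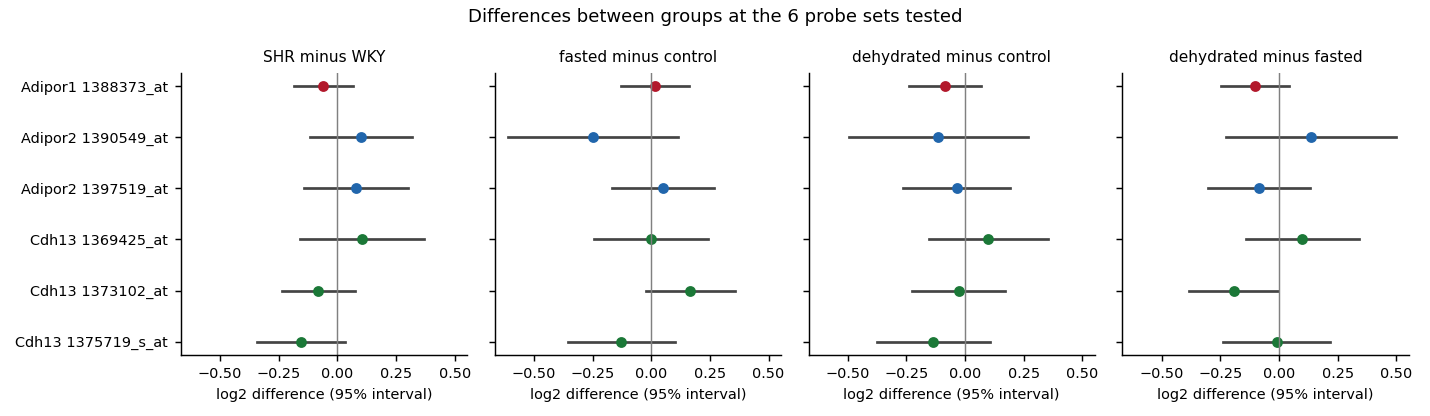
Differences of group means on the log2(signal + 16) scale (horizontal axis) for the 6 probe sets tested, 1 panel per comparison, with 95% intervals from limma as bars. Intervals are narrowest for Adipor1 in every panel and widest for 1390549_at of Adipor2 in the 3 Sprague Dawley panels, and the interval of 1373102_at of Cdh13 between dehydration and fasting is the only one that does not include 0.

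The balance between the receptors was followed within each array as log2 Adipor1 minus log2 Adipor2, read by 1388373_at and 1397519_at. Its absolute value carries no meaning, since the probes bind with different strength, but its change between groups does. SHR minus WKY was -0.14, where the larger of the group standard deviations was 0.206. Fasted minus control was -0.04 and dehydrated minus control -0.05, against standard deviations of 0.185 and 0.225. Dehydrated minus fasted was -0.02 against 0.225. All groups overlapped, and each difference was smaller than the larger standard deviation.

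The arrays of a group still differed among themselves, and this variation was compared between genes after subtracting the group means, over 23 arrays, with each gene read by its brightest probe set. Adipor1 and Adipor2 showed no correlation past the threshold (Pearson r = -0.16, Spearman rho = -0.09, permutation p = 0.457 and 0.697, adjusted 0.686 and 0.9 over the 3 pairs). Adipor1 and Cdh13 gave r = 0.02 and rho = -0.03 (permutation p = 0.931 and 0.9, adjusted 0.931 and 0.9). Leaving out the 2 arrays farthest from the median of Adipor1 gave r = -0.03 and r = -0.10 for these pairs.

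At 1397519_at and 1373102_at, Adipor2 and Cdh13 were high and low on the same arrays. Their r was 0.66 and their rho 0.65 (two-sided permutation p = 0.00075 and 0.00163, adjusted 0.00225 and 0.00489). Without the 2 arrays farthest from the median of Adipor2 r was 0.64. It was 0.64 within the 10 SHR and WKY arrays and 0.71 within the 13 Sprague Dawley arrays. This degree of likeness was uncommon but not particular to these genes. Of 10425 genes, 31 (0.3%) followed Adipor2 at least as closely as Cdh13 did, and 39 (0.37%) followed Cdh13 at least as closely as Adipor2 did. These probe sets also ran with the Gapdh 3' to 5' ratio, at r = -0.61 for 1397519_at and -0.68 for 1373102_at, against -0.22 for Adipor1. The other probe sets gave -0.05 at 1390549_at and 0.14 at 1395146_at of Adipor2, and -0.19 at 1369425_at and -0.41 at 1375719_s_at of Cdh13. With that ratio regressed out, r between Adipor2 and Cdh13 was 0.42, with an adjusted permutation p of 0.088. With the choroid plexus markers regressed out instead, r was 0.64, with an adjusted permutation p of 0.00483.

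The same was computed for the other probe sets. The remaining 5 pairings of an Adipor2 with a Cdh13 probe set gave r from -0.19 to 0.34, with adjusted permutation p-values of at least 0.349. Probe sets of 1 gene did not track each other closely either. The 2 tested Adipor2 probe sets had r = 0.22 and rho = 0.27 (adjusted permutation p = 0.251 and 0.303). For Cdh13, 1369425_at and 1373102_at gave r = 0.47 and rho = 0.61 (adjusted permutation p = 0.162 and 0.0305), with r = 0.83 in the Sprague Dawley arrays and 0.02 in SHR and WKY. The pair 1369425_at and 1375719_s_at gave r = -0.09 (adjusted permutation p = 0.679), and 1373102_at and 1375719_s_at gave r = 0.42 (0.162).

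**Figure D3:**
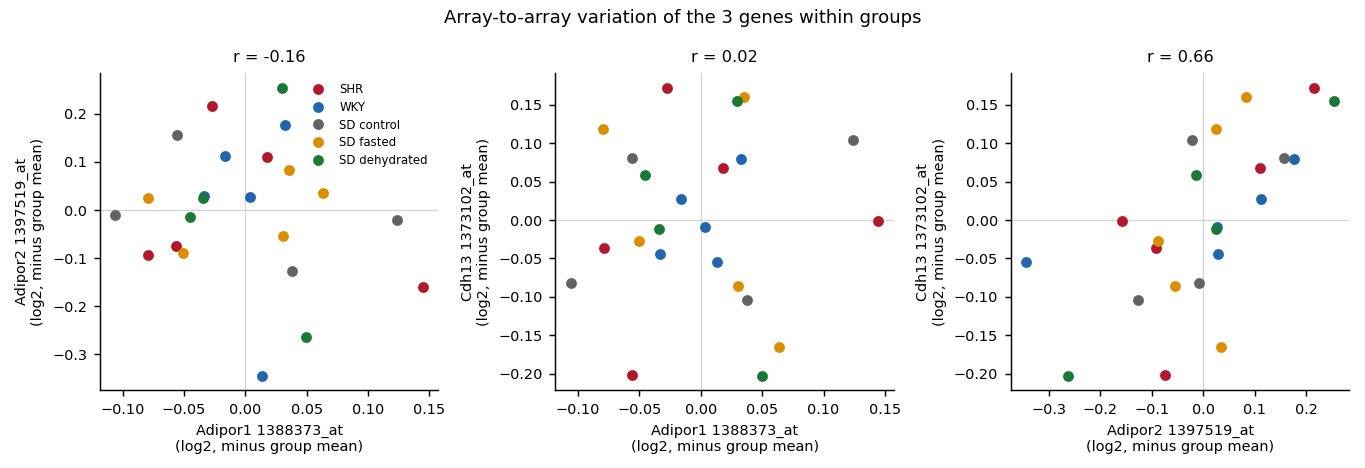
Log2(signal + 16) of each array minus its group mean, for the 3 pairs of genes, with 1 point per array coloured by group (SD means Sprague Dawley). The points of 1397519_at of Adipor2 and 1373102_at of Cdh13 rise together (r = 0.66), while those of Adipor1 with either do not (r = -0.16 and 0.02). Other pairings of Adipor2 and Cdh13 probe sets, not drawn, gave r from -0.19 to 0.34. With the Gapdh 3' to 5' ratio regressed out, the r of 0.66 became 0.42.

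Among 10425 genes, the 5 whose signal ran most like that of Adipor1 over the 23 centred arrays were Trappc4, a vesicle tethering subunit, at r = 0.84, Rpp25l at 0.80, Uqcc5 at 0.77, Rgs17, a regulator of G protein signalling, at 0.76 and Hacl1, a peroxisomal lyase, at 0.75. For Adipor2 they were Gabrr2, a GABA receptor subunit, at 0.80, Mmp24, a membrane metalloproteinase, at 0.77, LOC100912991 at 0.77, Grik5, a kainate receptor subunit, at 0.76 and Actr2-ps1 at 0.76. For Cdh13 they were Cyth2, an exchange factor of ARF GTPases, at 0.80, Gnai1, an inhibitory G protein subunit, at 0.79, Naa12 at 0.77, Carhsp1 at 0.76 and Cd82, a tetraspanin, at 0.76. These are the extremes of a search, given as a description. No gene was on more than 1 of the 3 lists.

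The wider adiponectin system was followed with a list of 75 genes, of which 68 were on the table and 53 or 54 were kept in a fit, each read by its brightest probe set. Between SHR and WKY, 2 rose and 1 fell, which is 5.56% of those kept and near the background of 5.12%. The gene that fell, Cers4, was kept through its WKY level alone. In the fasting, dehydration and dehydration against fasting comparisons 0 of 53 passed. The list's median difference was -0.01 for strain, 0.03 for fasting, -0.02 for dehydration and -0.04 between dehydration and fasting, where all probe sets had medians of 0.01, 0.003, -0.01 and -0.01.

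Among the ligands, Adipoq, adiponectin itself, was kept only in the SHR and WKY fit, at 32.3 ± 9.6 and 33.2 ± 6.6 (difference -0.04, limma adjusted p = 0.93). Its means in the Sprague Dawley groups were 22.0 to 24.4, below the filter. C1qtnf4, a secreted relative of adiponectin, was higher in SHR at 1376707_at, with arrays of 126.1 to 165.4 against 86.2 to 118.9 in WKY. Its log2 difference was 0.49 ± 0.095 (SE, n = 5 and 5, limma adjusted p = 0.00411), and the groups did not overlap. Its other kept probe set, 1395955_at, gave -0.12 with a limma adjusted p of 0.718. With the choroid plexus markers as a covariate the difference at 1376707_at was 0.44, with a limma adjusted p of 0.0505. Of the 3 genes kept for assembling and folding adiponectin, 0 passed in any comparison.

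Among 6 kept relatives of the receptors, Paqr8, a membrane progestin receptor of the same family, was higher in SHR, at 885.4 ± 57.9 against 748.1 ± 40.4 in WKY. The log2 difference at its brightest probe set was 0.24 ± 0.059 (SE, limma adjusted p = 0.0231), and its other kept probe sets gave 0.13 and 0.20 without passing. The call was lost under 7 of 21 alternatives. It was 0.14 with a limma adjusted p of 0.269 when the choroid plexus markers entered as a covariate, and it was also lost without SHR array 3, WKY array 1 or WKY array 2, at limma adjusted p-values of 0.0755, 0.0672 and 0.0503. Among the adaptors, Appl1, the partner of both receptors, was read by 1389539_at. It had differences of 0.10 for strain, 0.10 for fasting, 0.14 for dehydration and 0.04 between dehydration and fasting, none past the threshold. The other kept Appl1 probe sets differed in sign for strain. They gave 0.169 (95% interval 0.003 to 0.335), -0.026 and -0.034, with limma adjusted p-values of 0.278, 0.919 and 0.905. Its relative Appl2 read 183.0 to 239.1 in the dehydrated arrays and 147.0 to 179.9 in the controls. These ranges did not overlap, as at 6.69% of all probe sets in this comparison, and the difference of 0.26 had a limma adjusted p of 0.301. The other differences of Appl2 were 0.01 for strain, 0.16 for fasting and 0.09 between dehydration and fasting.

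In the AMPK arm 0 of 11 kept genes passed in any comparison. Prkaa1, the alpha 1 catalytic subunit, read 192.6 to 247.4 in the dehydrated arrays and 168.0 to 186.2 in the controls, a difference of 0.25 with a limma adjusted p of 0.268. Ranges without overlap were found at 6.69% of all probe sets in this comparison. The gene was read by 1375970_at, since 1369104_at and 1394921_at lay below the filter. The other differences of Prkaa1 were 0.004 for strain, 0.12 for fasting and 0.13 between dehydration and fasting. Prkaa2, the alpha 2 subunit, was below the filter, with group means of 3.8 to 10.9, as was Ppara, the receptor that gives the PPAR alpha arm its name, at 2.4 to 3.7. In the ceramide arm, Cers4, a ceramide synthase, was lower in SHR at 26.5 ± 7.7 than in WKY at 45.6 ± 6.1. Its log2 difference was -0.55 ± 0.126 (SE, limma adjusted p = 0.0133), and it was below the filter in the Sprague Dawley fit. Its SHR mean lay under the filter of 29.5 in the SHR and WKY fit, so it was kept through its WKY level alone. It passed under all 20 alternatives that kept it, but these reuse the same arrays and are no separate support for the difference. The other 9 kept genes of that arm, all 4 kept of the PPAR alpha arm and all 8 kept of the insulin and p38 arm did not pass in the strain comparison.

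Some cell-type markers differed between the strains on the same arrays, where 5.12% of all probe sets tested passed the threshold. Of the kept markers of astrocytes and tanycytes, oligodendrocytes, oligodendrocyte precursors and endothelial cells 0 passed. The same held for pericytes and smooth muscle, choroid plexus, ependyma and adipocytes. Of 8 kept markers of microglia and macrophages 3 were lower in SHR past the threshold, with summed signals of 1312 to 1797 against 1817 to 2099 in WKY. Of 7 kept markers of fibroblasts and meninges 3 were lower as well, at 2204 to 2937 against 3177 to 3921. Among neuronal markers, Cartpt, the precursor of the CART peptide, was higher in SHR by 0.48 (limma adjusted p = 2.22e-05), the 1 of 10 kept area postrema neuron markers past the threshold. Prph, the neuronal filament protein peripherin, was higher by 0.73 (limma adjusted p = 0.0001), 1 of 2 kept motor neuron markers, while 0 of 8 general neuron markers passed. These markers are named after their values were seen. Their part in the differences of C1qtnf4, Paqr8 and Cers4 was not tested.

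**Figure D4:**
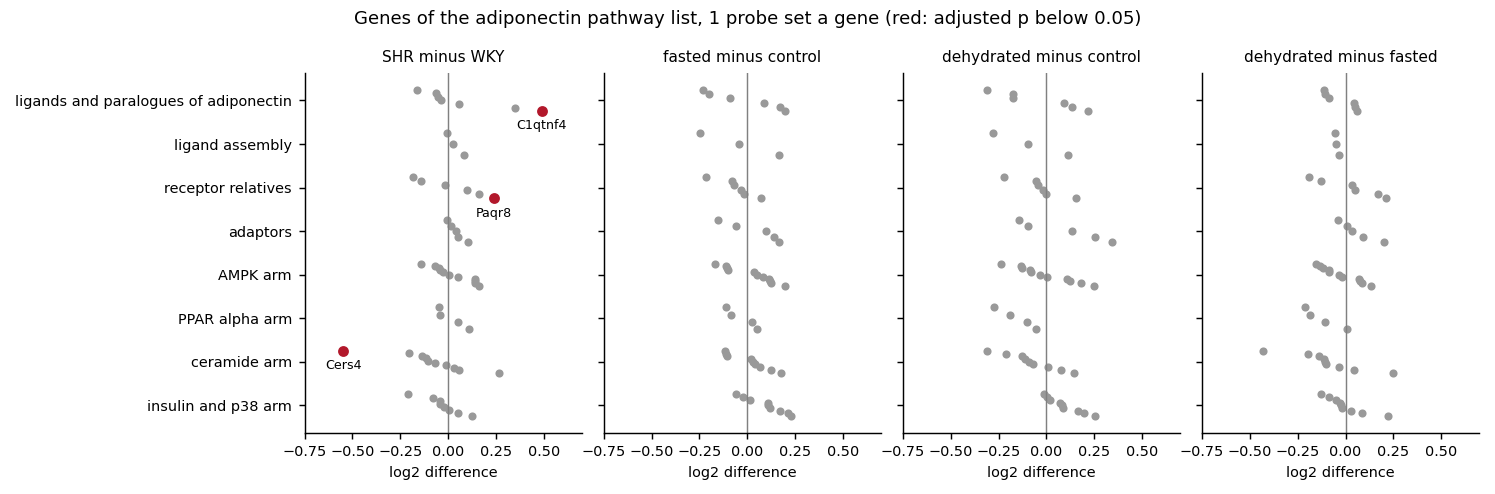
Differences of group means on the log2(signal + 16) scale (horizontal axis) for the kept genes of the adiponectin list, grouped by role (rows), with 1 panel per comparison and 1 point per gene. Red points are the 3 genes past an adjusted p of 0.05, C1qtnf4, Paqr8 and Cers4, all in the strain comparison. Cers4 was kept in that fit through its WKY level alone.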

How the data were processed

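RNA of the area postrema was hybridised to Affymetrix Rat Genome 230 2.0 arrays, 23 in all. The authors deposited 1 linear intensity for each probe set and array, computed with GCOS 1.2 according to the submitters' processing notes, with settings not given in the sources used here. Each array was already scaled to a trimmed mean of 100 (2% cut at each end), so no further normalization was applied. Such scaling hides any change shared by most transcripts, and dim signals carry background that compresses differences.

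Titles gave the groups, and 0 columns were left without a sample. The 57 control probe sets were left out, as were probe sets whose mean signal over a fit's arrays lay below the 40th percentile. Differences are on the log2(signal + 16) scale, which understates folds of dim probe sets. They were tested with limma 3.58.1 in R 4.3.3 (lmFit, eBayes with trend and robust, two-sided), with Benjamini-Hochberg adjustment over all 18625 probe sets kept and a threshold of 0.05. SHR and WKY formed 1 fit, and the 3 Sprague Dawley groups another. The test script was checked on simulated data. Correlations used 100000 permutations within groups. The rest was done in Python 3.11.15 (pandas 2.3.3, numpy 2.4.6, matplotlib 3.10.9, scipy 1.17.1).

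Genes were named from the platform annotation, where 20826 probe sets had 1 symbol, 436 several and 9780 none. None of those with several held Adipor1, Adipor2 or Cdh13. A list gene was read by its brightest probe set, by mean signal. Named were all probe sets of the 3 genes, Adipoq, Appl1, Appl2, Prkaa1, Prkaa2 and Ppara, any other list gene past the threshold, and the 5 genes most correlated with each of the 3. The members and lists were chosen with earlier results of these data known. Arrays are pools, so p-values measure the spread between pools, and nothing in the labels says that pools were independent cohorts. The number of arrays limits the precision. Alternatives were another normalization, other pseudocounts and filters, plain eBayes, array weights, all arrays in 1 model, a replicate block, the Gapdh ratio or the choroid plexus markers as a covariate, gene means, and fewer arrays.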

Additional observations from a re-analysis of the deposited data

How the results depend on the processing

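Under every alternative run, 0 probe sets of the 3 genes passed the threshold. Of 518 alternative values, 487 kept their sign and 31 changed it, and the lowest limma adjusted p was 0.187. These values are of single probe sets, except for gene means, which were set against the gene's brightest probe set. In fasted minus control, Cdh13 1369425_at became 0.000191 with a pseudocount of 64 and 0.013 with array weights. Adipor2 1397519_at became -0.033 with the Gapdh 3' to 5' ratio as a covariate, and the mean over the Adipor2 probe sets was -0.1. In dehydrated minus control, Cdh13 1373102_at became 0.014 and Adipor2 1397519_at 0.011 with the Gapdh ratio, and 0.019 and 0.004 with the choroid plexus marker mean, a covariate chosen after seeing the data. In dehydrated minus fasted, Cdh13 1375719_s_at became 0.003 with the replicate block, 0.06 with the Gapdh ratio and 0.028 with the choroid plexus mean. Adipor2 1397519_at became 0.044 with the Gapdh ratio, and the mean over the Adipor2 probe sets was 0.024.

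Leaving out 1 array at a time, sign changes gave ranges of -0.007 to 0.123 for Adipor2 1397519_at in SHR minus WKY, and of -0.02 to 0.057 for Adipor1 and -0.072 to 0.093 for Cdh13 1369425_at in fasted minus control. In dehydrated minus control they were -0.12 to 0.052 for Adipor2 1397519_at and -0.079 to 0.04 for Cdh13 1373102_at. In dehydrated minus fasted they were -0.17 to 0.002 for Adipor2 1397519_at and -0.102 to 0.093 for Cdh13 1375719_s_at. With the Gapdh ratio regressed out of the correlations, also chosen after seeing the data, Adipor2 and Cdh13 gave r = 0.424 (adjusted permutation p = 0.088), and Adipor1 and Cdh13 turned to r = -0.174. Of the other genes named, Paqr8 in SHR minus WKY was also lost with plain eBayes (limma adjusted p = 0.0789), all arrays in 1 model (0.0519) and the Gapdh ratio (0.0644). Appl2 turned to -0.037 with the Gapdh ratio, and Prkaa1 to -0.002 with quantile normalization and -0.013 with the choroid plexus mean. Without 1 array, SHR minus WKY ran from -0.143 to 0.033 for Adipoq, -0.049 to 0.081 for Appl2 and -0.026 to 0.036 for Prkaa1, and dehydrated minus fasted from -0.01 to 0.065 for Appl1. The alternatives for these genes were chosen after seeing the data. The cause of these changes was not tested.

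Calls over all probe sets ranged over the alternatives from 556 to 1072 for strain, 0 to 6 for fasting, 2 to 74 for dehydration and 1 to 10 between dehydration and fasting. With the replicate block they were 1072, 3, 15 and 1. Samples of the same number correlated at -0.17 to 0.281 after centring, not all above 0.1, so the numbers were not taken as pairs. SHR arrays 1 and 2 correlated at 0.164 and 0.281 with the WKY arrays of their number. With other WKY arrays the highest r was 0.074 and 0.13. SHR arrays 3, 4 and 5 were closer to a WKY array of another number. Whether same-numbered arrays shared a batch was not tested.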
